A study of Mus musculus with 10 samples.

Results

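The keratins Krt14, Krt17, Krt18, Krt19, Krt1 and Krt77 were followed across 5 sorted populations of mouse mammary cells. The members were the probe sets whose only gene symbol was 1 of these names, which gave 7 probe sets for 6 genes among 3663 probe sets, or 6 of the 2932 features tested after probe sets were averaged per gene. Krt14 and Krt17 were far higher in the basal than in the luminal populations, and Krt18 was lower in the basal ones. Krt19 did not separate them past the threshold, and Krt1 and Krt77 were high on only 2 of the 10 arrays, both basal.

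RNA from glands of virgin FVB females aged 6 to 8 weeks was hybridised to Affymetrix mouse expression arrays, 2 arrays for each population. Cells carrying the blood and endothelial proteins CD45, CD31 or Ter119 were gated out, with CD140α (Pdgfra) added in the methods, and the rest were sorted in 2 passes on CD24, CD49f (integrin α6) and Thy-1. The 3 basal populations were Thy-1+CD24medCD49fhigh, which the submitters call stem cells, Thy-1-CD24medCD49fhigh, which they call progenitors, and CD24medCD49fmed, which they call myoepithelial. The 2 luminal populations were CD24highCD49fmed, named as luminal progenitors, and CD24medCD49f-/low, named as differentiated luminal cells. All mice were of a single strain, and the labels give no treatment. The methods of the study name a CD24lowCD49fmed gate where the labels have CD24medCD49fmed. Each array is called here by its population and its replicate number, and the CD24medCD49fmed arrays were numbered 2 and 3.

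Keratins build the intermediate filaments of epithelial cells, and each filament pairs an acidic type I with a basic type II chain. Krt14 is the type I partner of Krt5 in the basal layer of stratified and glandular epithelium, and Krt17 is a type I keratin of basal and appendage cells. Krt18, the partner of Krt8, and Krt19 are type I keratins of simple epithelium and are used as luminal markers in the mammary gland. Krt1, the partner of Krt10, and Krt77 are type II keratins of skin, Krt1 of its suprabasal layers. In the mouse, Krt14, Krt17 and Krt19 lie in the type I cluster on chromosome 11, with Krt14 beside Krt16 and Krt19 beside Krt15. On chromosome 15, Krt1 and Krt77 are adjacent genes, and Krt18, although type I, lies beside Krt8.

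The deposited values are log2 intensities centred on a mean of 0 over the 10 arrays for each probe set, so they carry differences between arrays and not abundance. A value of 1 is 2-fold above the mean of that probe set, and levels of different keratins cannot be set against each other. Cell numbers of a type and RNA per cell cannot be told apart in such bulk samples. Differences are given as log2 ± standard error from limma, with Benjamini-Hochberg adjusted p over all 2932 features, and a feature was called at an adjusted p under 0.05.

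The basal and luminal labels were checked against marker lists, in a comparison that called 34.7% of all features higher and 41.3% lower in basal cells. All 11 basal mammary markers in the table, among them the contractile genes Acta2 and Myh11, were higher in the basal populations, and 12 of the 14 luminal markers were lower. The 11 include Itga6, which encodes the sort protein CD49f and so is no independent check of the labels. The median of the luminal list was between -2.18 and 0.07 on the basal arrays, against 0.79 to 1.68 on the luminal arrays. The fibroblast list was also higher in the basal populations for all 7 of its measured genes, with array medians of -0.15 to 1.58 on the basal arrays and -1.30 to -0.57 on the luminal arrays. Of 6 Schwann cell genes, 5 were higher and 1 lower. No gene of the endothelial list was in the table, and 1 of 9 leukocyte genes, Lcp1, was.

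Krt14 had the largest mean difference between basal and luminal cells of the 6, although it was not shown to exceed that of Krt17 (exact permutation p = 0.5) and its probe set 1423935_x_at alone gave less than Krt17 did. Its mean over 2 probe sets was 2.47 and 1.28 in Thy-1+CD24medCD49fhigh, 2.01 and 1.00 in Thy-1-CD24medCD49fhigh and 2.32 and 1.69 in CD24medCD49fmed arrays, against -3.07 and -3.30 in CD24highCD49fmed and -2.20 and -2.19 in CD24medCD49f-/low arrays. Every basal array lay above every luminal array, the lowest basal array being at 1.00 and the highest luminal array at -2.19. The basal mean was 1.79 ± 0.58 and the luminal mean -2.69 ± 0.58 (SD, n = 6 and 4 arrays). The difference was 4.49 ± 0.35, or 22.4-fold (adjusted p = 4.54e-09). The 2 probe sets gave 4.92 ± 0.36 (1460347_at) and 4.05 ± 0.36 (1423935_x_at). The suffix _x_at marks a probe set with probes that can also match other transcripts, so the second value may include signal of close type I keratins.

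Krt17 followed the same division. Its single probe set, 1423227_at, read 2.35 and 1.34 in Thy-1+CD24medCD49fhigh, 2.24 and 1.49 in Thy-1-CD24medCD49fhigh and 1.78 and 1.06 in CD24medCD49fmed arrays, against -3.38 and -3.56 in CD24highCD49fmed and -1.88 and -1.45 in CD24medCD49f-/low arrays. Basal and luminal arrays again did not overlap. The basal mean was 1.71 ± 0.51 and the luminal mean -2.57 ± 1.06 (SD, n = 6 and 4), a difference of 4.28 ± 0.35 or 19.4-fold (adjusted p = 5.86e-09). The SD of Krt17 over the luminal arrays was wider than that over the basal ones, and its 2 luminal populations had means of -3.47 in CD24highCD49fmed and -1.66 in CD24medCD49f-/low cells.

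**Figure D1:**
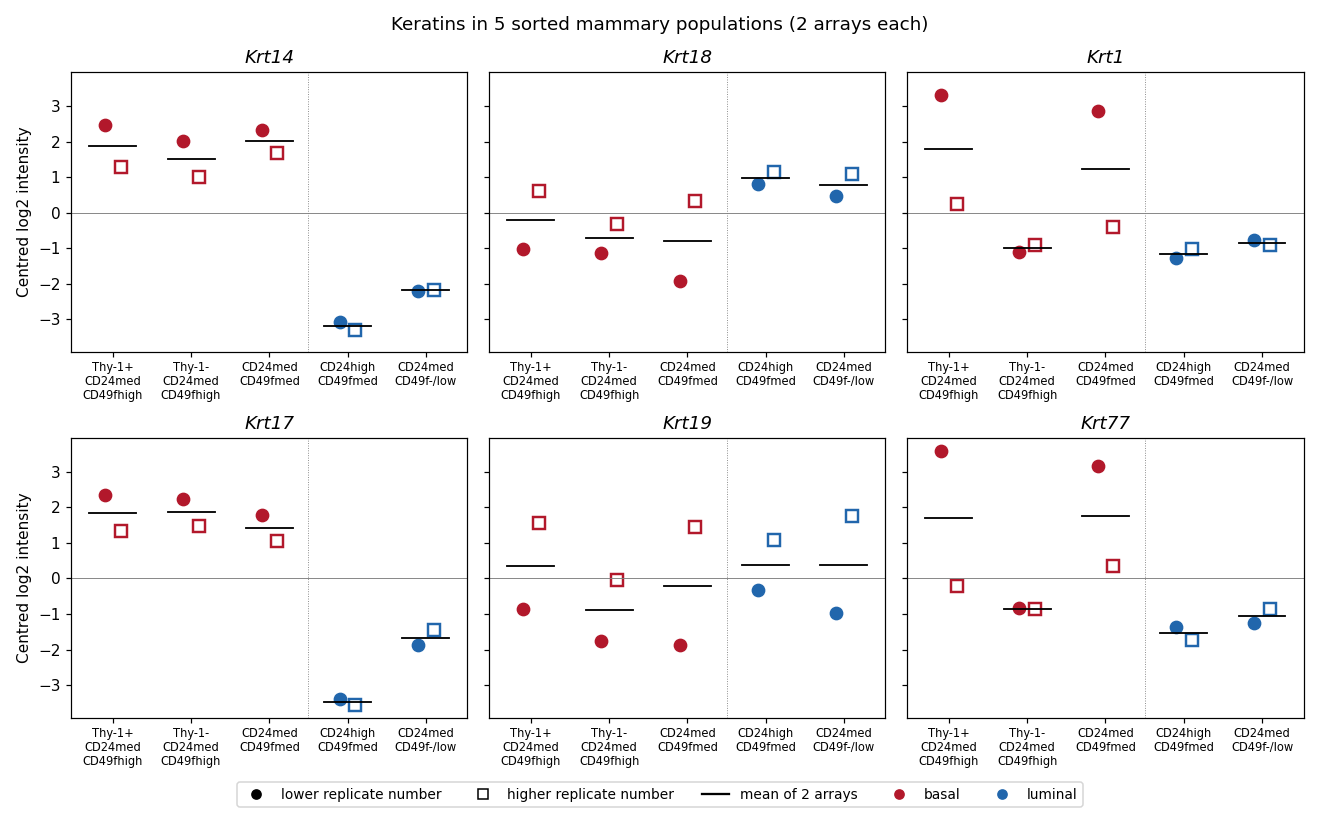
Centred log2 intensity (vertical axis) of each keratin on the 10 arrays, by sorted population (horizontal axis). Filled circles are the lower and open squares the higher replicate number, bars are means of 2 arrays, red is basal and blue luminal. Krt14 and Krt17 separate basal from luminal arrays, while Krt1 and Krt77 are high on Thy-1+CD24medCD49fhigh replicate 1 and CD24medCD49fmed replicate 2.

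Of all features, 76.0% were called between basal and luminal cells, 34.7% higher and 41.3% lower in basal cells, so being called is by itself no mark of a keratin. Of the 6 keratins, 4 were called higher and 1 lower. A complete separation of the 6 basal from the 4 luminal arrays, with the basal arrays higher, was seen for 25.2% of features and for 3 of the 6 keratins, and with the basal arrays lower for 23.8% of features and for 0 of the keratins. The median difference over all features was -0.11, and it was -0.20 with array medians set to 0.

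Some other keratins were called in the same direction as Krt14 and Krt17. Of the 48 further keratins listed, 7 were in the table. Krt5, the type II partner of Krt14, was 4.05 ± 0.34 higher in basal cells (adjusted p = 8.43e-09). Krt15, a type I keratin of basal cells, was 3.92 ± 0.36 higher (adjusted p = 2.96e-08) and Krt23 was 2.77 ± 0.35 higher (adjusted p = 1.54e-06). Krt10, the partner of Krt1, was 1.63 ± 0.43 higher (adjusted p = 0.00241). It did not have the profile of Krt14, with 2.30 on Thy-1+CD24medCD49fhigh replicate 1, 2.09 on CD24medCD49fmed replicate 2 and -1.39 to 0.21 elsewhere. A probe set was kept only if some arrays differed at least 4-fold. Krt10 may thus have entered the table through those high arrays, and its call may be partly set by that filter. The other 3 were not called: Krt16 at 0.71 (adjusted p = 0.0673), Krt25 at -0.70 (adjusted p = 0.104) and Krt7, a keratin of simple epithelium, at -1.11 (adjusted p = 0.0792).

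Keratin filaments are anchored at hemidesmosomes, which bind the cell to the basement membrane, and at desmosomes, which join neighbouring cells. Of 9 hemidesmosome genes listed, 6 were in the table, and all 6 were called higher in basal cells, as were 34.7% of all features. Their median difference was 2.40 against -0.11 over all features. The 4 largest were the collagen Col17a1 (3.80 ± 0.33), the laminin chains Lamb3 (2.78 ± 0.38) and Lama3 (2.56 ± 0.34), and the integrin Itga6 (2.25 ± 0.32), which encodes CD49f and was used in the sort. The desmosome list was mixed, with 3 genes higher and 2 lower of 6, so that the share called was near the 76.0% over all features. The membrane protein gene Perp (1.85 ± 0.32) and the cadherin Dsc3 (1.46 ± 0.39) were higher in basal cells. The plakophilin Pkp2 (-2.74 ± 0.39) and the cadherin Dsc2 (-1.23 ± 0.36) were lower.

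Krt18 ran the other way. Its probe set, 1448169_at, read -1.02 and 0.60 in Thy-1+CD24medCD49fhigh, -1.14 and -0.31 in Thy-1-CD24medCD49fhigh and -1.92 and 0.33 in CD24medCD49fmed arrays, against 0.79 and 1.14 in CD24highCD49fmed and 0.45 and 1.08 in CD24medCD49f-/low arrays. The luminal arrays were all above 0, but the highest basal array, at 0.60, exceeded the lowest luminal array, at 0.45. The basal mean was -0.58 ± 0.96 and the luminal mean 0.87 ± 0.32 (SD, n = 6 and 4). The difference was -1.44 ± 0.43, so Krt18 was 2.72-fold lower in basal cells (adjusted p = 0.00534). The call was lost without the 2 arrays highest in Krt1 and Krt77, a setting chosen after the values were seen (-0.80, limma adjusted p = 0.0804). Rank products, the method the study used to compare populations, did not call Krt18 (unadjusted permutation p = 0.0724) and called 15.1% of features. That method ranks each difference among those of all features, so it asks whether Krt18 is among the most extreme. Krt8 was not analysed here.

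The bases before the annotated start of Krt18 are shown because Krt18 was the 1 keratin called lower in basal cells. RefSeq promoter windows were given for 3 of the 6 keratins, and that of Krt14 lay inside the gene and is not shown. The Krt18 window ran over chr15:102027966-102028214 on the plus strand (GRCm38.p6, 249 bases, 5′ to 3′). Capitals mark TATAA, the core of a TATA box, which stands 18 bases from the end of the window.
Krt18: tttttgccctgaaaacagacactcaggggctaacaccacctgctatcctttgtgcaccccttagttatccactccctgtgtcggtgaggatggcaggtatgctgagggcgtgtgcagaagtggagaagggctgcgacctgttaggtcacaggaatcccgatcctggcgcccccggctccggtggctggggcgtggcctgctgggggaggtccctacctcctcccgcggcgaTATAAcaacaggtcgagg
Searched on both strands, TATAA was present in 22.8% of 32851 mouse windows of this length. The window also held GCCNNNGGC, the core motif of AP-2 factors, which 13.6% of windows had. It lacked the GC box GGGCGG, present in 32.6% of windows. It also lacked the AP-1 motif TGANTCA, present in 6.74% of windows. A match is only a run of letters and was not tied to any factor.

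Krt19 varied as widely within populations as between them. Its probe set, 1417156_at, read -0.86 and 1.56 in Thy-1+CD24medCD49fhigh, -1.75 and -0.04 in Thy-1-CD24medCD49fhigh and -1.89 and 1.45 in CD24medCD49fmed arrays, against -0.33 and 1.08 in CD24highCD49fmed and -0.99 and 1.75 in CD24medCD49f-/low arrays. Basal and luminal arrays overlapped over most of their range. The basal mean was -0.25 ± 1.52 and the luminal mean 0.38 ± 1.26 (SD, n = 6 and 4). The difference of -0.63 ± 0.62 was not called (adjusted p = 0.344), and its 95% interval of -1.92 to 0.65 spans lower levels in basal cells more than higher ones. Single arrays changed this result. Krt19 was called lower in basal cells without CD24medCD49fmed replicate 3 (-1.19, limma adjusted p = 0.0400), and leaving out CD24medCD49f-/low replicate 1 gave -1.32 (limma adjusted p = 0.0496). The difference was 0.050 without CD24medCD49f-/low replicate 2 and 0.33 without the 2 arrays highest in Krt1 and Krt77, neither called.

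In all 5 populations Krt18 and Krt19 were higher on the array with the higher replicate number. The gap was 0.35 to 2.24 for Krt18 and 1.41 to 3.33 for Krt19, widest for both in CD24medCD49fmed cells. Of 2932 features, 243 or 8.29% were higher on the higher-numbered array in all 5 populations and 3.04% were lower. The median of the luminal marker list moved the same way in 4 populations, by 0.89 to 1.40, and by -0.01 in CD24highCD49fmed cells. Krt14 and Krt17 were lower on the higher-numbered array of each basal population, by 0.63 to 1.19 for Krt14 and 0.72 to 1.02 for Krt17. With lower against higher number as a term in the limma fit, a setting chosen after the values were seen, the basal minus luminal difference was -1.44 ± 0.35 for Krt18 (adjusted p = 3.03e-04) and -0.63 ± 0.35 for Krt19 (adjusted p = 0.0866).

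**Figure D2:**
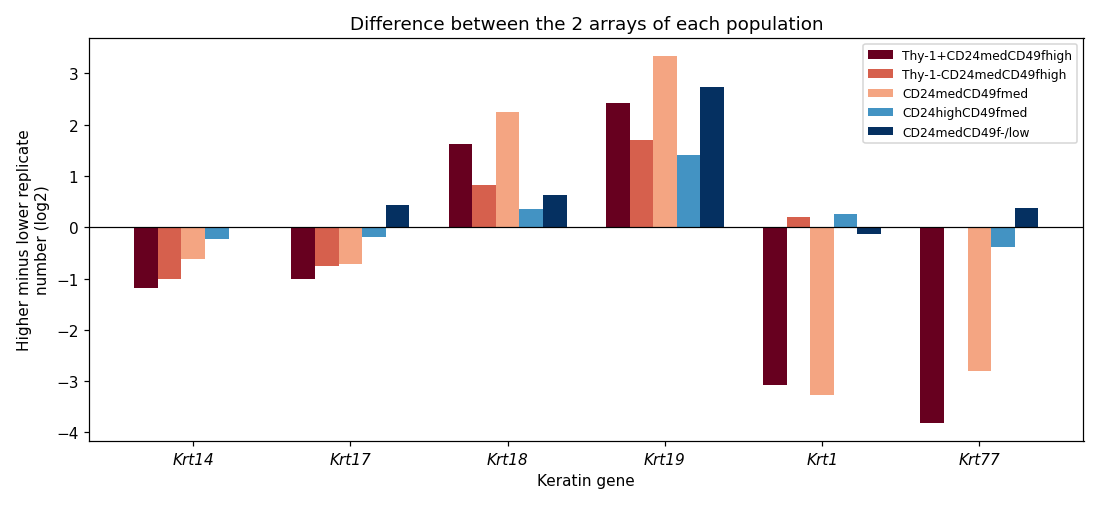
Difference in log2 intensity between the higher- and the lower-numbered array of each population (vertical axis) for each keratin (horizontal axis), with 1 bar per population. Krt18 and Krt19 are above 0 in all 5 populations, and Krt1 and Krt77 are lower on the higher-numbered array by 2.81 to 3.81 in Thy-1+CD24medCD49fhigh and CD24medCD49fmed cells.

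The epidermal keratins were carried by a pair of arrays. Krt1, probe set 1422481_at, read 3.32 and 0.24 in Thy-1+CD24medCD49fhigh, -1.11 and -0.91 in Thy-1-CD24medCD49fhigh and 2.86 and -0.40 in CD24medCD49fmed arrays, against -1.29 and -1.03 in CD24highCD49fmed and -0.78 and -0.92 in CD24medCD49f-/low arrays. Thy-1+CD24medCD49fhigh replicate 1 and CD24medCD49fmed replicate 2 stood far above the other 8 arrays, and Thy-1-CD24medCD49fhigh lay among the luminal arrays. The other 8 arrays spanned -1.29 to 0.24, less than the 4-fold difference between arrays that a probe set needed to be kept. Krt1 thus entered the table through those 2 arrays, and its p-values here and below are partly set by that filter. The basal mean was 0.67 ± 1.94 and the luminal mean -1.01 ± 0.21 (SD, n = 6 and 4). The difference was 1.68 ± 0.54, or 3.19-fold (adjusted p = 0.00923). It was no longer called by limma when those 2 arrays were left out (0.62, adjusted p = 0.115), nor with rank products (permutation p = 0.0208, where 0.01 was the threshold). Leaving out the Thy-1+ array of this pair alone gave 1.16 (limma adjusted p = 0.0746). Leaving out either Thy-1- array also ended the call, with a difference of 1.71 without replicate 1 (limma adjusted p = 0.0557) and of 1.64 without replicate 2 (limma adjusted p = 0.0604). Quantile normalisation (1.21, adjusted p = 0.0749) and robust moderation of the variances (adjusted p = 0.0638) also ended the call.

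Krt77 was high on the same 2 arrays as Krt1. Its probe set, 1433923_at, read 3.60 and -0.20 in Thy-1+CD24medCD49fhigh, -0.84 and -0.87 in Thy-1-CD24medCD49fhigh and 3.17 and 0.36 in CD24medCD49fmed arrays, against -1.36 and -1.74 in CD24highCD49fmed and -1.25 and -0.87 in CD24medCD49f-/low arrays. The lowest basal array, at -0.866, was above the highest luminal array, at -0.872, by far less than the spread between replicates. The basal mean was 0.87 ± 2.01 and the luminal mean -1.30 ± 0.36 (SD, n = 6 and 4), a difference of 2.17 ± 0.56 or 4.51-fold (adjusted p = 0.00216). The call held when each array was left out in turn (1.54 to 2.81), and without the 2 arrays that carried Krt1 the difference was 1.07 (limma adjusted p = 0.0216).

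The bases before the start of Krt77 are shown because this gene and its neighbour Krt1 were high on the same 2 arrays. The window ran over chr15:101869707-101869955 on the minus strand (GRCm38.p6, 249 bases, 5′ to 3′), and capitals mark 2 overlapping copies of TATATA that begin 29 and 27 bases from its end.
Krt77: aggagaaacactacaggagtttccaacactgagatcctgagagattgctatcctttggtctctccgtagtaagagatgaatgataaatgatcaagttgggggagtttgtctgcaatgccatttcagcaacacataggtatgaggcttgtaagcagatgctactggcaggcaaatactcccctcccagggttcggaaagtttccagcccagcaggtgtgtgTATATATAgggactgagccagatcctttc
TATATA was present in 5.24% of windows of this length, and the window held none of the other motifs searched.

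Other genes of the cornifying epidermis were high on the same arrays. Of the 43 epidermal markers listed, keratins apart, 9 were in the table. Of these 9, 6 had Thy-1+CD24medCD49fhigh replicate 1 and CD24medCD49fmed replicate 2 as their top arrays, as had 12.7% of all features. Probe sets were kept only where some pair of arrays differed at least 4-fold, so a gene could enter the table through these arrays alone. The count of 6 may thus be partly set by that filter. The list median was 1.90 on Thy-1+CD24medCD49fhigh replicate 1 and 1.35 on CD24medCD49fmed replicate 2, and between -0.52 and -0.06 on the other 8 arrays. Between the Thy-1+CD24medCD49fhigh arrays the widest gaps were those of Krtdap (3.60), Dmkn (2.42), Elovl4 (2.16), which makes very long fatty acids for the skin barrier, and Calm4 (2.01). Krt10 read 2.30 and 2.09 on the 2 arrays and at most 0.21 elsewhere. Sprr1a and Ly6d peaked on luminal arrays. Between basal and luminal cells 4 of the 9 were called higher and 1 lower, beside 34.7% higher and 41.3% lower of all features. The part of epidermal cells in the levels of Krt1 and Krt77 was not tested.

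**Figure D3:**
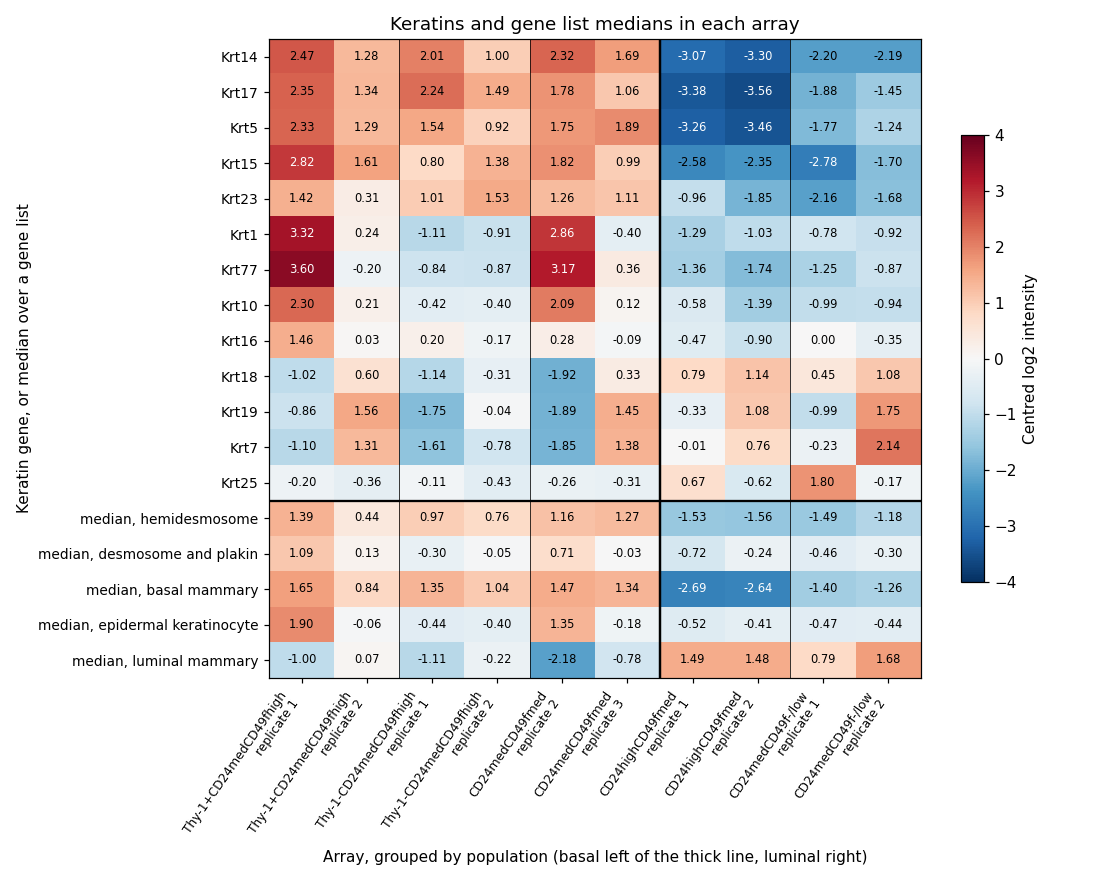
Centred log2 intensity (colour and printed value) of the 13 keratins in the table and the medians of 5 gene lists (rows) on each array (columns), with basal arrays left of the thick line. The epidermal median is 1.90 and 1.35 on the arrays where Krt1, Krt77 and Krt10 are high.

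Among the basal populations limma called no keratin in the fit of all 10 arrays without a block. Within the CD24medCD49fhigh gate, Thy-1+ cells were set against Thy-1- cells. Thy1, the gene of the sort protein, read 2.59 and 0.58 on the Thy-1+ arrays and 0.23 and -0.54 on the Thy-1- arrays. The 2 Thy-1+ arrays correlated at 0.45 over all probe sets, and each correlated best with a CD24medCD49fmed array. Between Thy-1+ and Thy-1- cells limma called 2 features in all (0.0682%) and 0 of the 6 keratins, 2 of which had an unadjusted p under 0.05. Krt1 differed by 2.79 ± 0.84 (adjusted p = 0.524) and Krt77 by 2.55 ± 0.87 (adjusted p = 0.999), with means of 1.78 and -1.01 for Krt1 and 1.70 and -0.85 for Krt77 in Thy-1+ and Thy-1- cells. Rank products called both (permutation p = 1.88e-04 for Krt1 and 3.10e-04 for Krt77), as it did 2.15% of features. A limma fit on only the arrays compared also called both, with a common error for all 6 keratins. Without Thy-1+CD24medCD49fhigh replicate 1 the differences were 1.25 and 0.65. Krt14 differed by 0.37 ± 0.55, Krt17 by -0.02 ± 0.53, Krt18 by 0.52 ± 0.66 and Krt19 by 1.24 ± 0.96. The intervals reached from -0.76 to 1.51 for Krt14 and from -1.13 to 1.09 for Krt17, so differences of about 2-fold were not resolved. The 7 other keratins had 0 calls.

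CD24medCD49fmed cells were set against the mean of both CD24medCD49fhigh populations. Here 1 feature (0.0341%) and 0 keratins were called by limma, and 0 keratins had an unadjusted p under 0.05. Krt77 differed by 1.34 ± 0.76 and Krt1 by 0.84 ± 0.73, and without CD24medCD49fmed replicate 2 by -0.06 and -0.79. Rank products called both (permutation p = 6.82e-04 for Krt77 and 0.00621 for Krt1), beside 2.18% of features. Krt14 (0.31 ± 0.47), Krt17 (-0.43 ± 0.46), Krt18 (-0.33 ± 0.57) and Krt19 (0.05 ± 0.83) differed by less than their errors.

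Of the 6 keratins, Krt17 had the widest difference between the luminal populations, and it was not called. CD24highCD49fmed cells had 1.81 ± 0.53 less Krt17 than CD24medCD49f-/low cells on the log2 scale (-3.47 and -1.66), and the 2 arrays of each did not overlap. Its adjusted p was 0.134, in a comparison that called 6 features (0.205%) and 0 keratins, Krt17 being the 1 with an unadjusted p under 0.05. Krt17 was called by rank products (permutation p = 0.00197, with 3.27% of features called). It was also called by limma without CD24medCD49f-/low replicate 1 (-2.03, adjusted p = 0.0336). Krt14 differed by -0.99 ± 0.55 (adjusted p = 0.374), and Krt5 by -1.86 (adjusted p = 0.109). The 11 basal mammary markers had a median difference of -1.23 between these populations, with 1 called lower and 10 not called. The 2 CD24medCD49f-/low arrays correlated at 0.36 over all probe sets, and each correlated best with a CD24highCD49fmed array. Krt18 differed by 0.20 ± 0.66, a sign that turned when array medians were set to 0 (-0.18), since the median over all features in this comparison was 0.35 as deposited and -0.03 after that scaling. Krt19 differed by less than 0.01 with an SE of 0.96, Krt1 by -0.30 ± 0.84 and Krt77 by -0.48 ± 0.87.

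**Figure D4:**
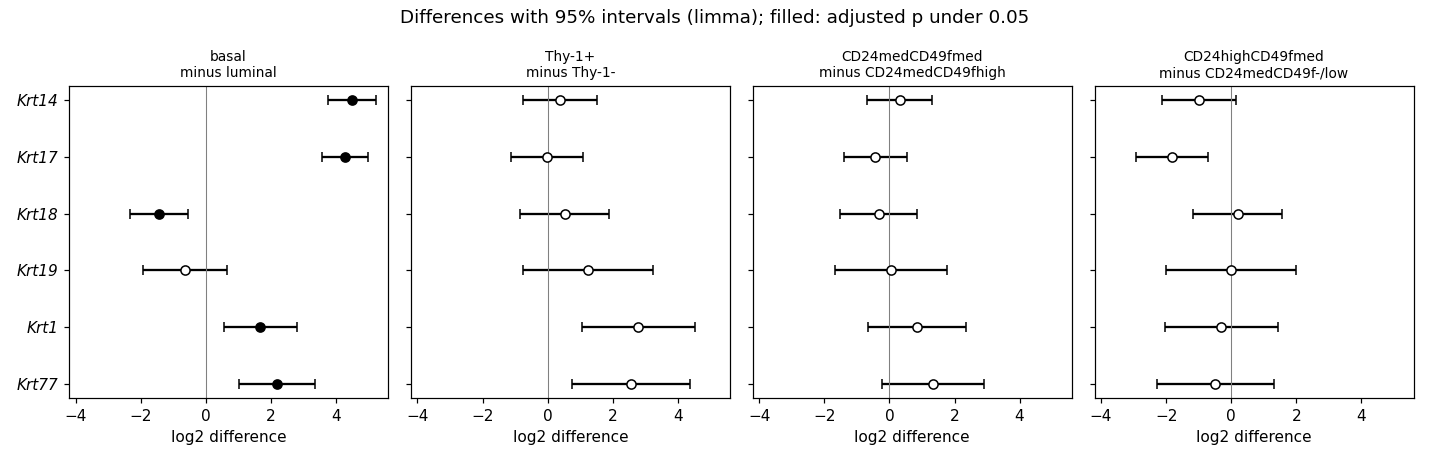
Log2 difference (horizontal axis) of each keratin (vertical axis) in 4 comparisons, 1 panel each, with 95% intervals from limma. Filled points have an adjusted p under 0.05, which 5 keratins reached between basal and luminal cells and 0 in the other 3 comparisons.

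In the order of the 5 population means, only the step between the basal and the luminal block was resolved, and only for Krt14 and Krt17. Of 24 neighbouring pairs over the 6 keratins, 2 were called. Krt14 ran from CD24medCD49fmed (2.00) through Thy-1+ (1.88) and Thy-1- CD24medCD49fhigh (1.51) to CD24medCD49f-/low (-2.20) and CD24highCD49fmed (-3.19), and the step of 3.70 between Thy-1-CD24medCD49fhigh and CD24medCD49f-/low was called (adjusted p = 1.13e-04). Krt17 ran from Thy-1- (1.87) and Thy-1+ CD24medCD49fhigh (1.84) through CD24medCD49fmed (1.42) to CD24medCD49f-/low (-1.66) and CD24highCD49fmed (-3.47), and the step of 3.09 between CD24medCD49fmed and CD24medCD49f-/low was called (adjusted p = 2.97e-04). Krt18 was highest in CD24highCD49fmed (0.97) and lowest in CD24medCD49fmed cells (-0.80). Krt19 means lay between -0.89 in Thy-1-CD24medCD49fhigh and 0.38 in CD24medCD49f-/low cells. Krt1 was highest in Thy-1+CD24medCD49fhigh (1.78) and CD24medCD49fmed cells (1.23), with the other 3 means at -1.16 to -0.85. Krt77 was highest in CD24medCD49fmed (1.76) and Thy-1+CD24medCD49fhigh cells (1.70), with the others at -1.55 to -0.85. Of the 6 pairs of a basal with a luminal population, all 6 were called for Krt14 and Krt17, 4 for Krt77, 3 for Krt1, 2 for Krt18 and 0 for Krt19. Of all features, those pairs called 62.0% (Thy-1+CD24medCD49fhigh), 60.0% (Thy-1-CD24medCD49fhigh) and 67.0% (CD24medCD49fmed) against CD24highCD49fmed cells, and 26.1%, 27.2% and 35.2% in the same order against CD24medCD49f-/low cells. Among the basal populations 0.0682% were called for Thy-1+ against Thy-1- cells, 0.0% for Thy-1+CD24medCD49fhigh and 0.102% for Thy-1-CD24medCD49fhigh against CD24medCD49fmed cells. The pairs called for Krt1 and Krt77 all involved Thy-1+CD24medCD49fhigh or CD24medCD49fmed cells.

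Whether the keratins of a pair differed from each other was tested on their difference within each array, basal against luminal, by an exact two-sided permutation test over 210 splits of the arrays. The splits treat arrays as exchangeable, although arrays of the same population are not known to be independent samples of basal or luminal cells. The p-values thus describe these arrays only. Krt18 minus Krt19 was -0.32 ± 0.64 on the basal arrays and 0.49 ± 0.97 on the luminal arrays (SD, exact permutation p = 0.148, adjusted over 3 pairs 0.221). So Krt18 was called and Krt19 was not, but they were not shown to differ. Krt1 minus Krt77 was -0.20 ± 0.39 on the basal and 0.30 ± 0.35 on the luminal arrays (SD, exact permutation p = 0.0857, adjusted 0.221). Krt14 minus Krt17 was 0.08 ± 0.43 on the basal and -0.12 ± 0.50 on the luminal arrays (SD, exact permutation p = 0.5).

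The named genes with the profile most like each keratin were ranked by Pearson correlation over the 10 arrays, which share populations and processing, so the values only describe likeness. Krt14 was closest to the RNA-binding protein gene Rbpms (r = 0.997), the protease inhibitor Timp3 (0.997), the Notch ligand Dll1 (0.997) and the smooth muscle gene Tagln (0.996). Krt17 was closest to Selenom (0.992), the chemokine Cxcl14 (0.991), Tagln (0.991) and the small heat shock protein gene Hspb8 (0.991), and its r with Krt14 was 0.982. Krt18 was closest to the fibrinogen chain Fgb (0.983), Col8a1 (0.973), Smim22 (0.962) and Tmem30b (0.962). Krt19 was closest to the transcriptional cofactor Cited1 (0.971), Krt7 (0.952), the tight junction gene Cldn7 (0.938) and Vill (0.933). Krt1 was closest to Calm4 (0.994), Capns2 (0.984), the desmosomal cadherin Dsg1a (0.979) and Krt77 (0.975). Krt77 was closest to Krt10 (0.982), Krt1, Calm4 (0.971) and Krtdap (0.968). For Krt77 the rank correlation with Calm4 was lower, at 0.65, and with Krt1 it was 0.81. With Krt14, at r = 0.71, the rank correlation of Krt77 was 0.96.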

How the data were processed

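RNA was labelled from the 3' end in 2 amplification cycles. The authors normalised probe set intensities across the 10 arrays and deposited centred log2 values. Their methods name RMA, the labels RMA and GCRMA, with no version. Per the methods, probe sets were kept above a minimum level and where some pair of arrays differed at least 4-fold (smallest range found 2.00 log2), so weakly varying keratins were not analysed here, and background cannot be read from centred values. Of 3663 probe sets, 3291 had 1 gene symbol in the platform annotation, 75 several and 297 none. Values were averaged per gene (2932 features).

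All arrays entered a single limma 3.58.1 fit (R 4.3.3) with a mean per population, 5 residual degrees of freedom and 16.5 from moderation. Tests were two-sided. Nothing says that replicates came from separate animals, so p-values measure the spread between these samples. The members and gene lists were chosen with earlier results of these data known. The text names all 6 keratins, the 4 nearest genes of each, and up to 4 genes per list. Rank products (100 permutations, unadjusted p under 0.01) and other scalings, blocks and left-out arrays were alternatives. The limma script was tested on simulated data. No build was named by the files. Sequences are from RefSeq (GRCm38.p6).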

Additional observations from a re-analysis of the deposited data

How the results depend on the processing

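Between basal and luminal cells Krt14, Krt17 and Krt77 kept their direction and call under every alternative run. The 2 arrays highest in Krt1 and Krt77 were left out together as an alternative chosen after seeing the data. Without them the basal minus luminal difference was -0.80 for Krt18 (adjusted p = 0.0804), 0.33 for Krt19 and 0.62 for Krt1 (adjusted p = 0.115), the Thy-1+ minus Thy-1- difference was -0.22 for Krt14, and the CD24medCD49fmed minus CD24medCD49fhigh difference was 0.39 for Krt18 and -0.015 for Krt1. Called features were then 0 in both of these comparisons among basal cells. Rank products kept the differences of Krt18 (-1.44) and Krt1 (1.68) uncalled between basal and luminal cells and called 444 features. They called Krt1 (2.79) and Krt77 (2.55) between Thy-1+ and Thy-1- cells with 63 features, Krt1 (0.84) and Krt77 (1.34) in CD24medCD49fmed cells with 64 features, and Krt17 (-1.81) between luminal populations with 96 features. Quantile normalisation (1.21) and robust moderation (1.68) ended the call of Krt1 between basal and luminal cells. The cause of these changes was not tested.

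Same-numbered arrays deviated together in some pairs of populations (r = 0.52 for the luminal pair, 0.30 for Thy-1+ and Thy-1-) but not in all (down to -0.51, with CD24medCD49fmed, numbered 2 and 3), so the numbers were not taken as pairs. Differences of the higher- minus the lower-numbered array correlated at 0.18 to 0.51 among basal populations, 0.52 for the luminal pair and -0.20 to 0.30 between basal and luminal ones. With 2 arrays per population these are the same correlations as those of same-numbered arrays. Only the sign of those with CD24medCD49fmed turns with its numbering, so the -0.51 and the 0.51 are the same value. With the replicate number as a block, Krt19 was -1.53 between basal and luminal cells (adjusted p = 7.14e-04). Krt1 (2.79, adjusted p = 0.00461) and Krt77 (2.55, adjusted p = 0.0150) were then called between Thy-1+ and Thy-1- cells. CD24medCD49fmed minus CD24medCD49fhigh was then 0.12 for Krt17, -2.65 for Krt19 (adjusted p = 0.0265), 2.82 for Krt1 (adjusted p = 0.0136) and 3.23 for Krt77 (adjusted p = 0.00499), and the number 3 occurs in that population only. The 6 keratins all had the same error under this block (0.42 between basal and luminal cells), since the moderation gave them a common variance. Called features under this block were 9 for Thy-1, 19 for CD24medCD49fmed and 33 between luminal populations. A block of lower against higher number, added after seeing the data, called Krt1 (adjusted p = 0.0175) and Krt77 (adjusted p = 0.0409) for Thy-1 with 13 features, and 65 features between luminal populations. Fits on only the arrays compared called Krt1 (adjusted p = 8.37e-04) and Krt77 (adjusted p = 0.00341) for Thy-1 with 13 features, and 0 features between luminal populations. In this Thy-1 fit the 6 keratins again all had the same error, 0.56. In the fit of all arrays it was 0.84 for Krt1 and 0.87 for Krt77, so the smaller p-values rest on that common variance.

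With array medians set to 0, Krt19 was -0.0086 in CD24medCD49fmed minus CD24medCD49fhigh and Krt18 -0.18 in CD24highCD49fmed minus CD24medCD49f-/low, where 15 features were called, and quantile normalisation gave -0.27 for Krt18 there with 0 features. Both scalings left 1 feature called for Thy-1, and quantile normalisation left 0 for CD24medCD49fmed. Probe sets tested alone gave 1 call for Thy-1 and 11 between luminal populations, and Krt14 minus Krt17 changed to -0.23 with 1423935_x_at alone.

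With each array left out in turn, basal minus luminal ranged from -1.32 to 0.050 for Krt19 and from 1.13 to 2.22 for Krt1. Krt19 was called without CD24medCD49fmed replicate 3 (-1.19, adjusted p = 0.0400), and CD24medCD49f-/low replicate 1 left out gave -1.32 (adjusted p = 0.0496). The difference of Thy-1+ minus Thy-1- ranged from -0.22 to 0.97 for Krt14, -0.53 to 0.49 for Krt17 and -0.29 to 1.33 for Krt18. CD24medCD49fmed minus CD24medCD49fhigh ranged from -0.0050 to 0.62 for Krt14, -1.45 to 0.79 for Krt18, -1.62 to 1.72 for Krt19, -0.79 to 2.48 for Krt1 and -0.065 to 2.75 for Krt77. CD24highCD49fmed minus CD24medCD49f-/low ranged from -2.03 to -1.59 for Krt17, -0.11 to 0.51 for Krt18 and -1.37 to 1.36 for Krt19. Called features ranged from 0 to 11 for Thy-1, 0 to 1 for CD24medCD49fmed and 0 to 295 between luminal populations, the last without CD24medCD49f-/low replicate 1 and 118 without its replicate 2. Krt14 minus Krt17 ranged from -0.00037 to 0.35.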
